A study of Mus musculus with 6 samples.

Results

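Neurogenic lineage factors and neuroblast markers were followed here as a set of 9 genes: Gsx2, Dlx1, Dlx2, Sp8 and Pax6, which encode transcription factors, the neuroblast markers Dcx and Cd24a, and Gad1 and Gad2, which encode the enzymes of GABA synthesis. They were selected by gene name alone from the 55802 genes of the deposited tables, and all 9 were listed. The cells were primary neural stem cells of the adult C57BL/6 mouse subventricular zone (SVZ), the germinal layer along the lateral ventricles, grown in Neuralbasal medium with B27. Control cells (n = 3 libraries, genotype WT) had received ADV-GFP, an adenovirus carrying green fluorescent protein, for 24 h, and SETD4 OE cells (n = 3, genotype SETD4 overexpression) had received ADV-SETD4-GFP, which also carries SETD4, a SET domain protein, for 24 h. Virus and fluorescent protein were thus common to both groups, and the comparison asks what raised SETD4 does to these cultures. The labels do not say whether the libraries of a group came from separate animals or cultures, so p-values measure the spread between these libraries, which may be technical, and they name no selection of infected cells.

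In the adult SVZ, stem cells of astroglial character give rise to transit-amplifying progenitors and these to neuroblasts, which migrate to the olfactory bulb and become mostly GABAergic interneurons. Homeodomain factors of the Gsx and Dlx families, the zinc finger factor Sp8 and the paired-box factor Pax6 mark and direct regional branches of that lineage. Doublecortin (Dcx) and the surface protein CD24 mark the migrating neuroblasts, and the glutamate decarboxylases of Gad1 and Gad2 make GABA from glutamate.

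Library depth was even, at 14924273 to 18078717 reads over the listed genes. Setd4 was at 0.952 to 1.53 FPKM in the controls and at 296 to 346 FPKM in SETD4 OE, and reads of the construct are not separated from those of the gene in these values. FPKM are reads scaled to gene length and to library size. Control replicate 1 stood apart in mitochondrially encoded reads (3.78%, against 2.45% in each of the other controls and 3.52% to 3.73% in SETD4 OE). All 10 stem cell and astroglial markers were above 1 FPKM, so the labelled cell type had its markers, but they did not move together: 6 rose, 3 fell (Nes, Vim and Fabp7) and 1 did not pass. Their sum was 2908 to 3134 FPKM in control cells and 3619 to 3778 FPKM in SETD4 OE cells, and without Gfap it was 2577 to 2805 and 2273 to 2346 FPKM. Of 6 oligodendrocyte precursor markers 4 rose and 2 (Olig1 and Olig2) fell, and all 5 tested oligodendrocyte markers of 6 rose. Among these 5, Mag reached a mean of 1 FPKM only through its SETD4 OE values (0.570 FPKM in control cells, 1.63 FPKM in SETD4 OE cells). For these marker counts, 26.0% of all tested genes rose and 33.9% fell. Of 12 mature neuron markers 4 reached a mean of 1 FPKM, with 1 higher, 2 lower and 1 that did not pass. The sum of these 12 was 18.4 to 20.3 and 14.9 to 18.3 FPKM, and without the neurofilament genes Nefl and Nefm it was 6.55 to 7.73 and 13.3 to 17.0 FPKM. Nefl and Nefm were the 2 lower markers, and they, like Gfap, were left out after the values were seen. Both neurofilament genes reached a mean of 1 FPKM only through their control values. The remaining sum includes Pvalb, at 1.57 ± 0.450 FPKM in control cells and 7.78 ± 1.49 FPKM in SETD4 OE cells. Without control replicate 1, the calls of the 5 genes that passed the test described next all held under its expression filter.

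Of the 9 genes, Gsx2, Pax6 and Gad1 rose and Cd24a and Gad2 fell in SETD4 OE. Dlx1, Dlx2 and Sp8 did not pass the test. Dcx was higher in every SETD4 OE library but missed the expression filter. The filter required an average over the 6 libraries of 1 FPKM or more, which 8 of the 9 genes met. The test was limma on log2(FPKM + 1), with p-values adjusted by the Benjamini-Hochberg method over 12994 genes and a threshold of 0.05. Of these 8, 5 passed, against 60.0% of all tested genes (26.0% higher, 33.9% lower), so the share of the set that passed was near that of the transcriptome. Gad1 met the filter only through its SETD4 OE values and Gad2 only through its control values. The SETD4 OE values lay outside the control range for 6 of the 9 genes (4 higher, 2 lower), and for 66.0% of all genes averaging 1 FPKM or more (63.1% from 0.5 FPKM). The median log2 fold change of the 8 tested genes was -0.06, equal to the -0.06 of all tested genes. In bulk RNA, a change in the number of cells that make a transcript and a change in transcript per cell cannot be told apart.

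**Figure D1:**
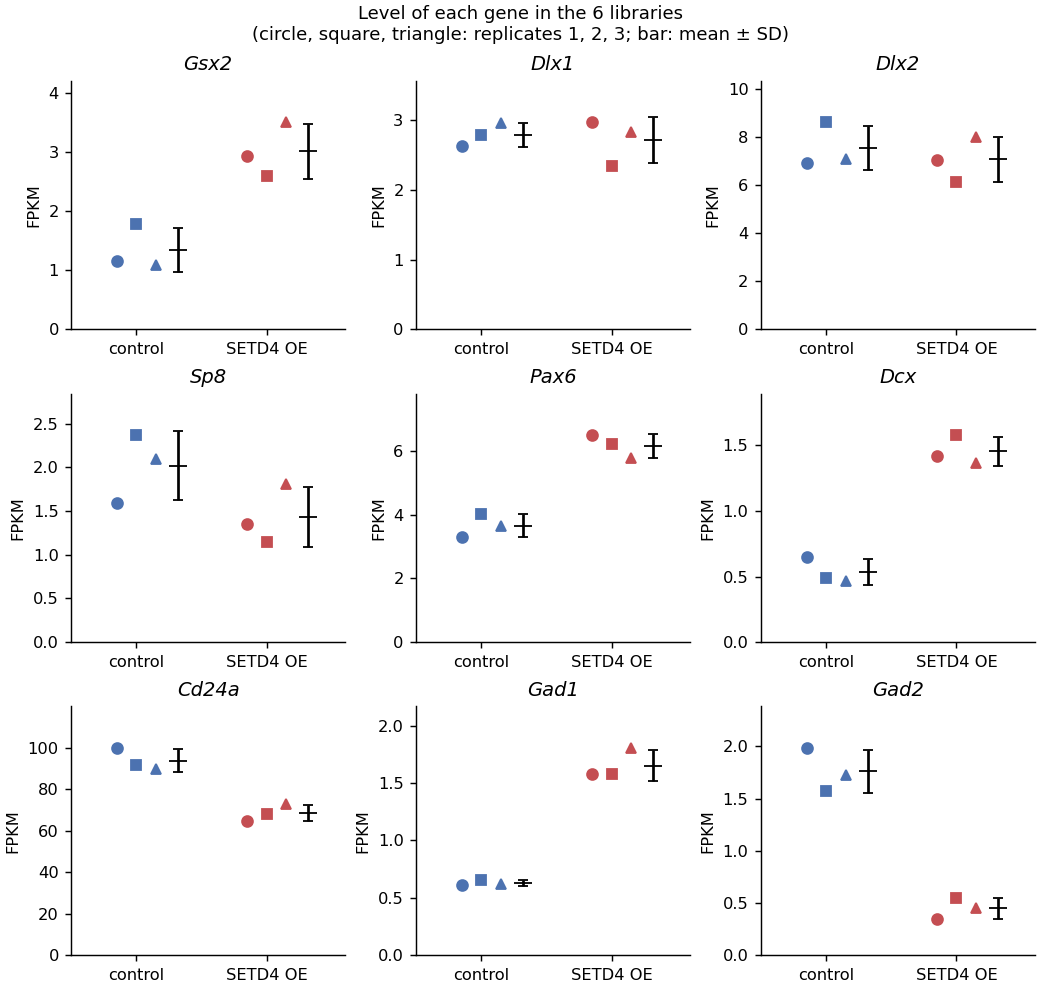
FPKM (vertical axes, each from 0) of the 9 genes in each of the 3 control (blue) and 3 SETD4 OE (red) libraries, with the mean and SD of each group in black. The groups do not overlap for Gsx2, Pax6, Dcx, Cd24a, Gad1 and Gad2, and overlap for Dlx1, Dlx2 and Sp8.

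Among the transcription factors, Gsx2 and Pax6 were higher in SETD4 OE. Gsx2 (ENSMUSG00000035946; mm39 chr5:75236262-75238554, plus strand) encodes a homeodomain factor of lateral ganglionic eminence and dorsal SVZ progenitors. It was at 1.16, 1.78 and 1.10 FPKM in control replicates 1 to 3 and at 2.93, 2.59 and 3.50 FPKM in SETD4 OE, resting on 29 to 52 reads per control library and 67 to 97 per SETD4 OE library. The highest control value stayed below the lowest SETD4 OE value. The mean went from 1.34 ± 0.375 to 3.01 ± 0.459 FPKM (SD, n = 3 each), 2.24-fold. This was a log2 fold change of 0.78 (SE 0.14, adjusted p = 0.00239, limma), and 1.24 (SE 0.24) by limma-voom on recovered reads, where no constant is added to FPKM. The call was lost where the filter was removed together with a replicate block (adjusted p = 0.0592, limma) or with leaving out control replicate 1 or 3 or SETD4 OE replicate 1 or 3 (0.0547 to 0.0600, limma).

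Pax6 (ENSMUSG00000027168; mm39 chr2:105499245-105527709, plus strand) is a factor of neural progenitors and of the branch that forms dopaminergic periglomerular neurons. Its controls were at 3.29, 4.03 and 3.65 FPKM and its SETD4 OE libraries at 6.50, 6.23 and 5.77 FPKM, from 617 to 830 and 1125 to 1201 reads. Every SETD4 OE library was above every control, and the mean rose from 3.66 ± 0.370 to 6.17 ± 0.369 FPKM, or 1.69-fold (log2 fold change 0.62, SE 0.08, adjusted p = 4.72e-04, limma). Pax6os1, an antisense transcript, shares 1431 bases with the gene. It was at 0.0761 ± 0.0403 and 0.246 ± 0.0524 FPKM, low beside Pax6. Without a stated strand setting, reads in the shared bases cannot be assigned to either gene.

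Dlx1 and Dlx2, the distal-less homeodomain factors of GABAergic progenitors, did not pass the test. The genes lie tail to tail on chromosome 2, Dlx1 (ENSMUSG00000041911; mm39 chr2:71358457-71364325) on the plus strand and Dlx2 (ENSMUSG00000023391; mm39 chr2:71373752-71377098) on the minus strand, with 9426 bases between their ends. Dlx1 was at 2.63, 2.78 and 2.96 FPKM in the controls and at 2.97, 2.34 and 2.84 FPKM in SETD4 OE. Dlx2 was at 6.93, 8.62 and 7.11 FPKM in the controls and at 7.05, 6.15 and 8.01 FPKM in SETD4 OE. The ranges of both genes overlapped between groups. The log2 fold change of Dlx1 was -0.03 (95% interval -0.24 to 0.18, adjusted p = 0.776, limma) and that of Dlx2 -0.08 (95% interval -0.34 to 0.17, adjusted p = 0.530, limma), and the sign turned with upper-quartile scaling for both genes and with further scalings for Dlx1. These intervals leave out a rise as large as the lower bound for Gsx2 (0.45) or Pax6 (0.44).

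Within a library, the FPKM ratio of Dlx2 to Dlx1 was 2.71 ± 0.354 in the controls and 2.61 ± 0.225 in SETD4 OE (SD, n = 3 each). An exact permutation test of the log2 ratio, two-sided, gave p = 0.6, and p = 0.6 when adjusted over the 2 ratios tested in the set. The antisense transcript Dlx1as spans all 5869 bases of the Dlx1 gene. It was at 1.02 ± 0.200 FPKM in control cells and 1.62 ± 0.243 FPKM in SETD4 OE cells (log2 fold change 0.37, adjusted p = 0.0294, limma), so the reads given to Dlx1 may hold some of Dlx1as, or the reverse.

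Sp8 (ENSMUSG00000048562; mm39 chr12:118810064-118816311, plus strand), a zinc finger factor of calretinin interneurons of the olfactory bulb, was at 1.59, 2.37 and 2.10 FPKM in the controls and at 1.35, 1.14 and 1.80 FPKM in SETD4 OE. SETD4 OE replicate 3 lay above control replicate 1, so the groups overlapped. Group means were 2.02 ± 0.396 and 1.43 ± 0.338 FPKM. The log2 fold change was -0.31 (95% interval -0.65 to 0.02, adjusted p = 0.0948, limma). This result sat near the threshold and passed as a fall under 3 alternatives: quantile normalization (adjusted p = 0.0492), without control replicate 1 (0.0384) and without SETD4 OE replicate 3 (0.0447). Over all alternatives with the same null its adjusted p ran from 0.0384 to 0.255.

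The neuroblast markers Dcx and Cd24a went in opposite directions. Dcx (ENSMUSG00000031285; mm39 chrX:142638838-142716307, minus strand) encodes a microtubule-associated protein of migrating neuroblasts. It was at 0.647, 0.490 and 0.462 FPKM in the controls and at 1.42, 1.58 and 1.36 FPKM in SETD4 OE. The gene model is 12647 bases long, so these low levels still rested on 131, 109 and 93 reads in the controls and 283, 310 and 287 in SETD4 OE. The lowest SETD4 OE value was above the highest control value, and the mean went from 0.533 ± 0.0994 to 1.45 ± 0.112 FPKM, 2.73-fold.

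The mean of Dcx over all 6 libraries was 0.993 FPKM, just under the filter, whereas Gad2 at 1.10 and Gad1 at 1.14 FPKM were just over it. Without the filter, Dcx rose with a log2 fold change of 0.68 (SE 0.10, adjusted p = 0.00430, limma over 30911 genes, of which 26.0% passed). With a minimum of 0.5 FPKM, chosen after the tables were seen, its adjusted p was 0.00102 (limma, 55.8% of 15012 genes passing). On recovered reads, limma-voom gave a log2 fold change of 1.54 (SE 0.15, 95% interval 1.22 to 1.86). Its call held in each fit without the filter that left out a library, with an adjusted p of 0.00905 to 0.0226 (limma), and with the replicate number as a block (0.0307, limma).

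The 250 bases before the Dcx start are shown because Dcx was the marker that rose and because its start region, unlike those of Gad1 and Gad2 printed further on, holds TAATTA, a core that homeodomain proteins can bind. The sequence is RefSeq's on build GRCm38.p6, an earlier build than the mm39 of the tables (chrX:143933220-143933469, minus strand, 5′ to 3′), with the match in capitals.
Dcx: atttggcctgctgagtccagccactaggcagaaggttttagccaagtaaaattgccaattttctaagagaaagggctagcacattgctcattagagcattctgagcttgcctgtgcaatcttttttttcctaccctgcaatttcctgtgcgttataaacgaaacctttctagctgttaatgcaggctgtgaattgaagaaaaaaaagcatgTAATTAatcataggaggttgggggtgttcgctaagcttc
TAATTA, which reads the same on both strands, occurred in 4.85% of 32817 RefSeq windows of this length. Of the 9 genes 8 had promoter entries, and TAATTA was found in both overlapping Dcx windows and in 1 of 3 Sp8 windows. A match is a description of the letters and not a measured site.

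Cd24a (ENSMUSG00000047139; mm39 chr10:43454280-43460261, plus strand), the CD24 surface glycoprotein gene used to sort neuroblasts and also active in ependymal cells, was the most abundant of the set. It was at 99.98, 91.6 and 89.9 FPKM in the controls and at 64.7, 68.1 and 72.8 FPKM in SETD4 OE, from 2637 to 4159 reads per library. All 3 SETD4 OE libraries were below all 3 controls. The mean fell from 93.8 ± 5.37 to 68.5 ± 4.04 FPKM, so the controls were 1.37-fold higher (log2 fold change -0.45, SE 0.07, adjusted p = 0.00123, limma). Ependymal markers went the other way, from sums of 22.4 to 27.0 FPKM in control cells to 56.1 to 73.3 FPKM in SETD4 OE cells over 8 genes. All 6 tested rose, against 26.0% of all tested genes. Of these 6, Tmem212 and Pifo met the filter only through their SETD4 OE values (control means 0.605 and 0.906 FPKM). Their part in the level of Cd24a was not tested.

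**Figure D2:**
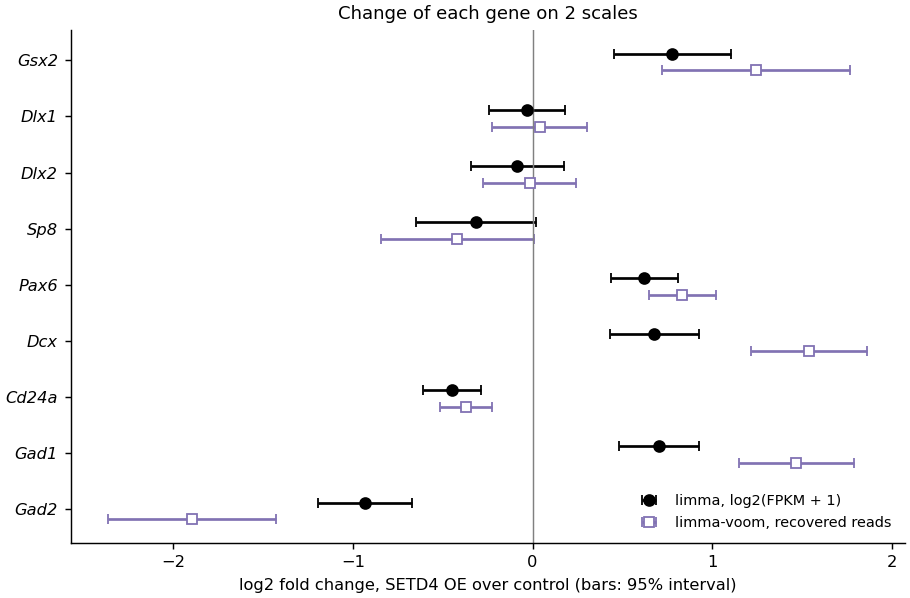
Log2 fold change of SETD4 OE over control (horizontal axis) with its 95% interval for each gene, from limma on log2(FPKM + 1) (filled circles; Dcx from the fit without the filter) and from limma-voom on recovered reads of genes with a mean of at least 10 reads (open squares). Low genes such as Dcx, Gad1 and Gad2 show larger changes on the read scale (1.54, 1.47 and -1.90) than with 1 added to FPKM (0.68, 0.70 and -0.93).

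The GABA synthesis genes exchanged places. Gad1 (ENSMUSG00000070880; mm39 chr2:70383416-70432358, plus strand) encodes the larger glutamate decarboxylase, which supplies most basal GABA. It was at 0.613, 0.655 and 0.617 FPKM in the controls and at 1.58, 1.58 and 1.81 FPKM in SETD4 OE, from 75 to 88 and 187 to 230 reads. The controls were tightly grouped and all below SETD4 OE. Its mean rose from 0.628 ± 0.0230 to 1.65 ± 0.134 FPKM, 2.63-fold (log2 fold change 0.70, SE 0.09, adjusted p = 6.27e-04, limma; 1.47, SE 0.15, by limma-voom).

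Gad2 (ENSMUSG00000026787; mm39 chr2:22512217-22583886, plus strand) encodes the smaller decarboxylase, which is found at nerve terminals. Levels were 1.99, 1.58 and 1.72 FPKM in the controls and 0.345, 0.548 and 0.449 FPKM in SETD4 OE, from 161 to 187 and 32 to 50 reads. Every SETD4 OE value was below every control value. The mean fell from 1.76 ± 0.208 to 0.447 ± 0.101 FPKM, so the controls were 3.94-fold higher (log2 fold change -0.93, SE 0.11, adjusted p = 3.53e-04, limma; -1.90, SE 0.22, by limma-voom). This was the largest change of the 9 genes on either scale.

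The share of Gad1 in the summed FPKM of both genes was 23.6%, 29.3% and 26.4% in the controls and 82.0%, 74.2% and 80.1% in SETD4 OE. The sum itself was 2.39 ± 0.189 FPKM in control cells and 2.10 ± 0.169 FPKM in SETD4 OE cells (SD, n = 3 each), and these ranges overlapped. The ratio of Gad1 to Gad2 within a library went from 0.361 ± 0.0534 to 3.82 ± 0.863, and all 3 SETD4 OE libraries were higher. The exact permutation test of the log2 ratio, two-sided, gave p = 0.1, the smallest that 3 libraries against 3 allow, and p = 0.2 adjusted over the 2 ratios.

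**Figure D3:**
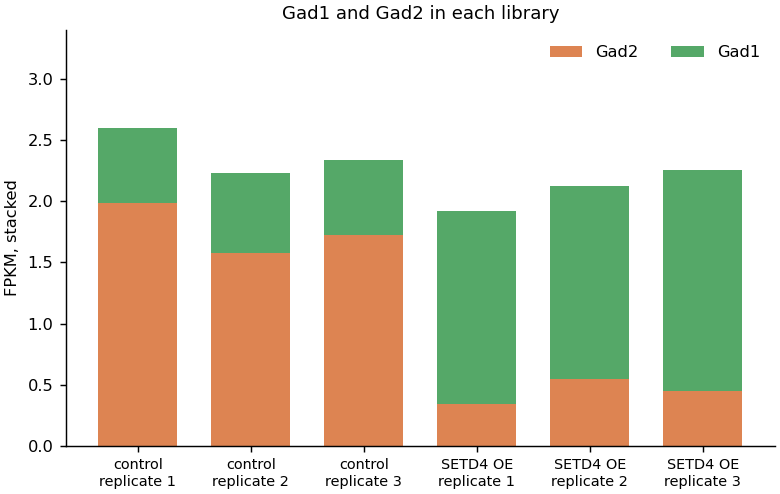
FPKM of Gad2 (orange) and Gad1 (green), stacked, in each of the 6 libraries. The total stays between 1.92 and 2.60 FPKM while Gad1 makes up 23.6% to 29.3% of it in the controls and 74.2% to 82.0% in SETD4 OE.

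The antisense transcript Gad1os shares 10286 bases of span with Gad1. It was at 0.666, 0.364 and 1.01 FPKM in the controls and at 0.135, 0.480 and 0.128 FPKM in SETD4 OE, with overlapping groups, and was under the expression filter. Reads of Gad1 and Gad1os in shared bases cannot be told apart here. The genes that overlap Gad2 are a pair of miRNA genes listed at 0 in all 6 libraries. Mature neuron markers went in both directions. Pvalb, a marker of a class of GABAergic interneurons, rose from 1.57 ± 0.450 to 7.78 ± 1.49 FPKM (adjusted p = 1.17e-04, limma). Nefl fell from 7.65 ± 0.427 to 0.577 ± 0.129 FPKM and Nefm from 4.20 ± 0.330 to 0.926 ± 0.0613 FPKM. Under the filter, Camk2a was at 0.502 ± 0.0804 and 1.39 ± 0.0458 FPKM, without overlap of the groups. Groups also did not overlap for Rbfox3 (0.0938 ± 0.0324 and 0.236 ± 0.0241 FPKM) and Syt1 (0.141 ± 0.0159 and 0.177 ± 0.0133 FPKM). Rbfox3 had 12, 9 and 6 reads in the controls. Snap25 (0.474 ± 0.0745 and 0.460 ± 0.0528 FPKM) and Slc17a7 (0.147 ± 0.0360 and 0.108 ± 0.0114 FPKM) overlapped. From 0.5 FPKM, a mean that Rbfox3 and Syt1 did not reach, 63.1% of all genes did not overlap. The interneuron markers Sst and Vip, like Slc17a6, were at 0 in at least 1 library. The vesicular glutamate transporter gene Slc17a6 was at 0.00351 ± 0.00608 and 0.0187 ± 0.0230 FPKM, and Slc32a1, which loads GABA into vesicles, at 0.101 ± 0.0109 and 0.318 ± 0.0968 FPKM. The part of neurons in the Gad1 and Gad2 values was not tested.

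The start regions of the decarboxylase genes are shown because the genes moved in opposite directions. Each is the 250 bases before the RefSeq start on GRCm38.p6, plus strand, 5′ to 3′, at chr2:70561879-70562128 for Gad1 and chr2:22622077-22622326 for Gad2. Capitals mark CANNTG, the E-box that proneural factors can bind, and GGGCGG, the GC box, searched on both strands.
Gad1: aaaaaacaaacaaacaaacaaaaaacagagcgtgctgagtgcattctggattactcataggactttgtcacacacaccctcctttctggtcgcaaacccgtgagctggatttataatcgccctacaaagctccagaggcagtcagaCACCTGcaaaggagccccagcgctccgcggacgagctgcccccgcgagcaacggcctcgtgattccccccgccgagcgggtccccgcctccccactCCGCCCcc
Gad2: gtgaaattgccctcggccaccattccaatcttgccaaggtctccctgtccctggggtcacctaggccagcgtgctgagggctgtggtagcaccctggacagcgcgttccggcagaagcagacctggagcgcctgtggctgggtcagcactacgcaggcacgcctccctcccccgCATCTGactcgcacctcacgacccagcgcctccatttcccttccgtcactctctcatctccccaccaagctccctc
Each window held 1 CANNTG match, and 66.2% of all windows held at least 1. Gad1 held 1 GGGCGG match, found in 32.7% of windows, and Gad2 none. Neither held TAATTA. Base composition was 58.0% G and C for Gad1 and 64.0% for Gad2, against 41.6% for the Dcx window.

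FPKM is per length, so levels can be ordered between genes. In the controls the order was Cd24a, Dlx2, Pax6, Dlx1, Sp8, Gad2, Gsx2, Gad1 and Dcx. Neighbours whose ranges overlapped were Sp8 with Gad2, Gad2 with Gsx2, and Gad1 with Dcx. In SETD4 OE the order was Cd24a, Dlx2, Pax6, Gsx2, Dlx1, Gad1, Dcx, Sp8 and Gad2. There the ranges of Dlx2 and Pax6, Gsx2 and Dlx1, Gad1 and Dcx, and Dcx and Sp8 overlapped. Gsx2 moved from a range below that of Dlx1 to one that overlapped it, and Gad2 from the middle of the order to its end. Apart from Cd24a, all levels lay between 0.345 and 8.62 FPKM.

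The genes most like each changed gene in profile were named by the smallest root mean square difference between centred log2(FPKM + 1) profiles over the 6 libraries, among 11268 protein-coding genes. With 6 libraries in 2 groups the likeness rests mostly on the group difference. For Gad1 these were Khk (difference 0.019; 1.44 ± 0.0486 to 2.93 ± 0.272 FPKM) and Slc25a18 (0.021). Gad2 was nearest to Idi1 (0.028; 25.4 ± 1.45 to 12.8 ± 0.998 FPKM) and Wdr76 (0.030). Pax6 was nearest to Pgap6 (0.037) and Hid1 (0.039), and Gsx2, which varied more between replicates, to Tmem198 (0.053) and Cib2 (0.056).

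Proneural and intermediate progenitor factors were mostly silent or higher. For the counts of this and the later lists, the share over all tested genes was 60.0% passing (26.0% higher, 33.9% lower). Of 12 genes 4 were tested, 3 rose and 1, Hes6, did not pass. Hes6 was at 90.8 ± 18.7 and 70.7 ± 6.97 FPKM (log2 fold change -0.34, adjusted p = 0.0966, limma). Without control replicate 1 it was called lower. Insm1, a zinc finger factor of neuronal progenitors, rose from 2.36 ± 0.648 to 4.88 ± 0.726 FPKM, and Btg2, an antiproliferative gene of neurogenic divisions, from 18.1 ± 1.03 to 40.3 ± 2.09 FPKM. The factors of the glutamatergic branch were under the filter and near the detection limit. Neurog2 had 3 reads in each control and 11, 15 and 13 in SETD4 OE (0.0818 ± 0.00453 and 0.366 ± 0.0617 FPKM). Eomes had 2, 3 and 4 reads in the controls and 16, 16 and 11 in SETD4 OE.

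Regional and olfactory interneuron factors changed in either direction or, more often, did not pass. Of 24 genes 14 were tested, 2 rose, 3 fell and 9 did not pass (4 higher and 2 lower after equal-sum or median-of-ratios scaling, 6 and 1 at equal upper quartiles, 5 and 2 after quantile normalization), with a median of 0.06. Emx2, a factor of dorsal telencephalon, fell from 10.8 ± 0.778 to 8.39 ± 0.354 FPKM, and the nuclear receptor gene Nr2f1 rose from 15.7 ± 0.509 to 19.9 ± 0.866 FPKM. These changed by -0.33 and 0.32 on the log2 scale. The later Dlx genes were under the filter, Dlx5 at 0.311 ± 0.0382 and 0.284 ± 0.131 FPKM and Dlx6 at 0.0926 ± 0.0351 and 0.124 ± 0.0688 FPKM. Sp9, the relative of Sp8, was at 0.972 ± 0.0433 and 0.887 ± 0.168 FPKM.

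Genes of the neuroblast cytoskeleton, migration and adhesion split in both directions, as Dcx and Cd24a did. Of 24 genes 21 were tested, 12 rose, 7 fell and 2 did not pass, with a median of 0.29 (5 or 6 fell under other scalings). Among the 12, St8sia2 met the filter only through its SETD4 OE values (0.822 ± 0.179 and 1.86 ± 0.409 FPKM). Nrep, a neuronal regeneration related protein gene, rose from 12.2 ± 0.294 to 51.1 ± 1.27 FPKM. The chemokine receptor gene Cxcr4 rose from 4.23 ± 0.699 to 15.8 ± 1.12 FPKM, and the neuronal tubulin gene Tubb3 from 5.66 ± 0.665 to 8.69 ± 1.31 FPKM. Sox4, a factor of newborn neurons, had a log2 fold change of 1.30. Ncam1, the carrier of polysialic acid on neuroblasts, fell from 30.8 ± 0.606 to 24.6 ± 0.832 FPKM (log2 fold change -0.31, adjusted p = 0.00163, limma), a call lost with quantile normalization (adjusted p = 0.0994, limma). Dclk1, the closest relative of Dcx, was at 32.5 ± 1.82 and 28.0 ± 1.96 FPKM. Its log2 fold change of -0.21 passed (adjusted p = 0.0356, limma) but did so in only 5 of 16 alternatives, where its adjusted p ran from 0.0189 to 0.755.

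Genes that carry, break down or refill GABA rose around the decarboxylase genes. Of 10 genes 7 were tested, 5 rose, 2 did not pass and none fell, with a median of 0.80, and the counts were the same under each other scaling. Abat, the GABA transaminase gene, rose from 11.7 ± 0.497 to 34.1 ± 0.116 FPKM. Slc38a1, a glutamine transporter gene, rose from 13.6 ± 0.112 to 37.3 ± 0.824 FPKM and Glul, the glutamine synthetase gene of astrocytes, from 108 ± 4.98 to 234 ± 6.73 FPKM. Several of these genes are also active in astroglia, whose markers went in both directions (given above): Gfap rose from 321 ± 14.6 to 1388 ± 42.8 FPKM and Aqp4 from 18.6 ± 3.07 to 136 ± 7.93 FPKM, while Vim and Fabp7 fell and Aldh1l1 did not pass. The part of astroglia in these values was not tested.

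**Figure D4:**
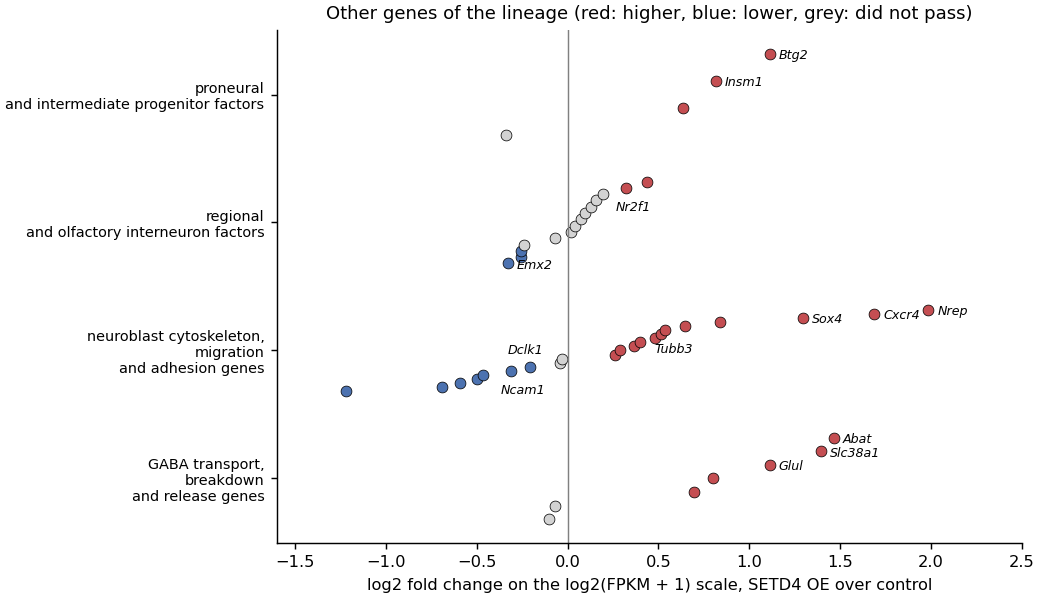
Log2 fold change on the log2(FPKM + 1) scale (horizontal axis) of each tested gene of the 4 lists, with genes that rose in red, fell in blue and did not pass in grey. Proneural and GABA genes that changed lie to the right, regional factors lie close to 0, and neuroblast genes lie on both sides.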

How the data were processed

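The 6 libraries were total RNA of adult mouse SVZ neural stem cells, 3 control and 3 SETD4 OE, grouped and numbered by sample titles. The aligner HISAT2 2.0.5 and build mm39 are named in the submitters' processing notes. For counter, annotation and strand setting, nothing is stated in the labels. The values the authors deposited, 1 table per group, were read as FPKM from their step sizes, since the file headers name no unit. The library size behind the FPKM differed from the recovered total, which was 0.634% to 2.75% above it in the controls and differed by -5.04% to -3.69% in SETD4 OE; other scalings were run for this reason.

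The product of FPKM and gene length came to whole reads for 100% of values (tolerance 0.05 reads), which gave the reads behind each gene. Genes averaging 1 FPKM or more were tested on log2(FPKM + 1) with limma 3.58.1 (trend, two-sided) in R 4.3.3, and all p-values were adjusted over all tested genes. Fold changes on this scale understate changes of low genes. The limma and limma-voom steps were tested on simulated data.

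The members and gene lists were chosen with earlier results of these data known. The text names all 9 genes, the 3 called genes with the largest change of each pathway list, and Dlx5, Dlx6, Sp9, Neurog2, Eomes, Tubb3, Dclk1, Ncam1 and Slc32a1, apart from some list genes that are counted but not reported here; the cell type marker genes and the overlapping antisense genes named were picked after their values were seen. Alternatives were other filters, a pseudocount of 0.1, 4 scalings, limma-voom, limma's treat at 1.5-fold, a replicate block and leaving out each library. Promoter sequences came from RefSeq (GRCm38.p6). Figures used matplotlib 3.10.9.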

Additional observations from a re-analysis of the deposited data

How the results depend on the processing

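Apart from the treat test against a minimum change of 1.5-fold, Gsx2, Pax6, Gad1, Gad2 and Cd24a kept their direction and their call in each alternative that changed 1 choice and tested them, and the highest adjusted p (limma) was 0.0121, 0.00383, 0.00500, 0.00369 and 0.0355 in that order. Under treat, 0 of these genes were called higher and 0 lower (the nearest was Gad2, adjusted p = 0.0696), and 1480 of all genes passed in place of 7790. With a mean of at least 5 FPKM, 2 of the set were tested, 0 were called higher and 1 (Cd24a) lower. Sp8 gained a call in 3 alternatives. With 2 choices changed (no filter, and a replicate block or 1 library left out), Gsx2 lost its call in 5 of 7 fits, with an adjusted p of up to 0.0600.

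Dlx1 changed sign, without passing, with equal sums (0.028), median of ratios (0.019), upper-quartile scaling (0.078) and limma-voom (0.039, and 0.039 with at least 10 reads), and ranged from -0.082 to 0.044 when a library was left out. Dlx2 turned to 0.047 with upper-quartile scaling and ranged from -0.17 to 0.0028 when a library was left out. Upper-quartile scaling moved the median of all tested genes from -0.06 to 0.07 and the calls from 3384 higher and 4406 lower to 4405 and 3259.

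Same-numbered libraries did not deviate together (correlations -0.066, -0.23 and 0.077 across genes), so the numbers were not taken as pairs. With the replicate block 6941 genes passed, and of the set 3 were higher and 2 lower, as without it. Depth limits Neurog2, Eomes, Dlx5, Dlx6 and Slc32a1, which rested on at most 20 reads per library.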
